A study of Sus scrofa with 19 samples.

Results

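Adrenal gene expression was compared between piglets of fish oil-fed and of control-fed sows that had received saline, not lipopolysaccharide (LPS), in late gestation. The comparison holds 7 of the 19 arrays of the study, 4 with the maternal diet Fish Oil (piglets 9, 11, 13 and 18 by the labels' numbers) and 3 with the maternal diet Control (piglets 8, 14 and 21), and its members were taken from the labels alone. All 19 piglets were males, 1 from each sow, so each array is 1 animal and 1 litter. The sows ate their diet from gestation day 75 and were injected with saline or LPS on gestation day 112. Other sows of the study had the maternal diet Microalgae, and all 6 groups of diet and maternal challenge entered the fit. The piglets were weaned at 21 days, and all of them were injected with LPS 1 week later, at 28 days, and killed after 2 hours. Both groups therefore show an adrenal under acute LPS challenge, and no gland of an unchallenged piglet is in the series. RNA came from whole glands, cortex and medulla together.

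The adrenal cortex makes cortisol and other steroids from cholesterol, and the chromaffin cells of the medulla make adrenaline. LPS from the bacterial cell wall is sensed by Toll-like receptor 4 with its partners MD-2 and CD14, mainly on macrophages and endothelial cells. It switches on inflammatory cytokines such as TNF and IL6, type I interferons with the antiviral genes that answer to them, and, through the pituitary, cortisol release. Fish oil supplies the long-chain omega-3 fatty acids that become part of membrane lipids and compete with arachidonic acid in the synthesis of eicosanoids.

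The values are log2 signals of 1-colour arrays, so a difference of 1 means a doubling, and levels of different genes cannot be set against each other. The 7 arrays had medians between 4.4 and 4.47 and correlated with one another at 0.955 to 0.973 across probe sets, within a group (0.955 to 0.972) as between the groups (0.956 to 0.973). With so few arrays the precision is limited. The median standard error (SE) of a difference was 0.199 log2, and the median 95% interval reached 0.409 log2 to either side. The labelled tissue carried the signals of its cells. Among the markers of the cortex, CYP17A1 had means of 12.42 ± 0.0476 (SD, n = 4) with fish oil and 12.23 ± 0.317 (SD, n = 3) with control, and CYP21A2 11.40 ± 0.134 and 11.08 ± 0.309. For the medulla, DBH lay between 5.60 and 7.15 and PNMT between 6.24 and 8.04. STAR, CYP11A1, MC2R, TH and CHGA were not matched to a tested probe set by symbol and are not analysed here.

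No gene was different between fish oil and control after maternal saline at the threshold of an adjusted p of 0.05. Of 20668 probe sets tested, 0 (0%) passed in limma's moderated test with Benjamini-Hochberg adjustment. At an unadjusted p under 0.05 there were 441 (2.13%), 234 higher with fish oil (1.13%) and 207 lower (1%). The lowest adjusted p was 0.450, for 1 probe set without a gene name, and the next lowest was 1. Among 9992 genes with a symbol, 129 were higher at an unadjusted p under 0.05 (1.29%) and 77 were lower (0.771%). In 251 genes every fish oil piglet lay above every control piglet (2.51%), and in 157 every fish oil piglet lay below (1.57%). Fish oil had the higher mean in 5303 genes (53.1%), with a median difference over all genes of 0.01 log2. In size, 197 genes differed by over 0.5 log2 and 17 by over 1 log2. All genes named below are thus not past the adjusted threshold. For them the difference is given with its SE, and the unadjusted p of limma is used only to count genes and to choose those named.

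Among the 19 genes picked out by the rule given next, the differences ran from 0.83 log2 in the macrophage receptor gene MRC1 to -1.06 log2 in the matrix gene DPT. Of the genes with p under 0.01, no overlap of the groups and both means above the filter on low signals, 15 were higher and 7 were lower with fish oil, and the 12 largest of the higher and all 7 lower ones are described. Since they were picked by this very difference, their values are a description. MRC1, the mannose receptor of resident macrophages, read 6.28, 5.78, 5.47 and 6.37 in piglets 9, 11, 13 and 18, against 5.18, 4.79 and 5.44 in the control piglets 8, 14 and 21. The lowest fish oil piglet, 13, lay just above the highest control piglet, 21. The difference was 0.83 ± 0.28 log2 (SE), a 1.78-fold higher signal. In a whole gland, more cells of a type and more RNA per cell cannot be told apart.

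NKG7, a granule protein of natural killer and cytotoxic T cells, was tight within both groups, with 4.80, 4.98, 4.72 and 4.99 with fish oil against 4.10, 4.28 and 4.36 with control. Its difference was 0.62 ± 0.157 log2. PRKCB, a protein kinase C of lymphocyte and myeloid signalling (0.55 ± 0.188 log2), and HCLS1, a cytoskeletal adaptor of blood cells (0.50 ± 0.171 log2), were also higher in all 4 fish oil piglets. Without control piglet 14 the difference of PRKCB was 0.36 log2. Likewise apart was SLFN11, which blocks replication in cells with damaged DNA and is induced by interferon (0.83 ± 0.275 log2), where the distance came largely from control piglet 21 at 3.76, with the other control piglets at 4.80 and 4.67. Without piglet 21 its difference was 0.50 log2.

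Relative to its SE, the difference was largest among these genes in FAM69B, a transmembrane protein of the endoplasmic reticulum. The fish oil piglets read 4.58, 4.61, 4.57 and 4.66 and the control piglets 3.87, 3.95 and 4.01, so that the distance was many times the spread within either group. The difference was 0.66 ± 0.155 log2. FZD5, a receptor for Wnt ligands, had the same shape, with 6.69, 6.53, 6.59 and 6.72 against 5.96, 5.95 and 6.04 (0.65 ± 0.174 log2).

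The other higher genes were KAT5, a histone acetyltransferase of DNA repair (0.66 ± 0.214 log2), ITM2A (0.64 ± 0.176), the lysosomal lipid transporter ABCA5 (0.63 ± 0.159), PRR19 (0.60 ± 0.203) and the cyclic nucleotide phosphodiesterase PDE1C (0.55 ± 0.182). In ITM2A, fish oil piglet 9 stood close to the controls at 3.86, while the other fish oil piglets read 4.39 to 4.53 and the controls 3.61 to 3.69.

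On the lower side, DPT, dermatopontin, a protein of the collagen matrix, had the largest difference. The fish oil piglets lay close together at 3.76, 3.85, 4.11 and 3.95, and the control piglets were spread over 5.86, 4.76 and 4.31. The difference was -1.06 ± 0.363 log2, and it was -0.62 log2 without piglet 8, the highest control. The same control piglet was highest in GSN, the actin-severing protein gelsolin, which read 5.43, 5.30, 5.47 and 5.48 with fish oil against 6.80, 5.97 and 5.89 (-0.80 ± 0.25 log2), and in COL5A2, a chain of type V collagen (-0.49 ± 0.152 log2). Without piglet 8 these differences were -0.51 log2 in GSN and -0.30 log2 in COL5A2.

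TRPM6, a magnesium channel, was lower by another pattern. Its control piglets read 5.14, 5.78 and 5.42 and its fish oil piglets 4.74, 4.43, 4.35 and 5.04, with piglet 14 highest and piglet 13 lowest (-0.81 ± 0.264 log2). MDGA1 (-0.64 ± 0.156 log2), the zinc finger gene ZNF643 (-0.64 ± 0.205 log2) and the G protein subunit GNB3 (-0.47 ± 0.156 log2) complete the lower genes.

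**Figure D1:**
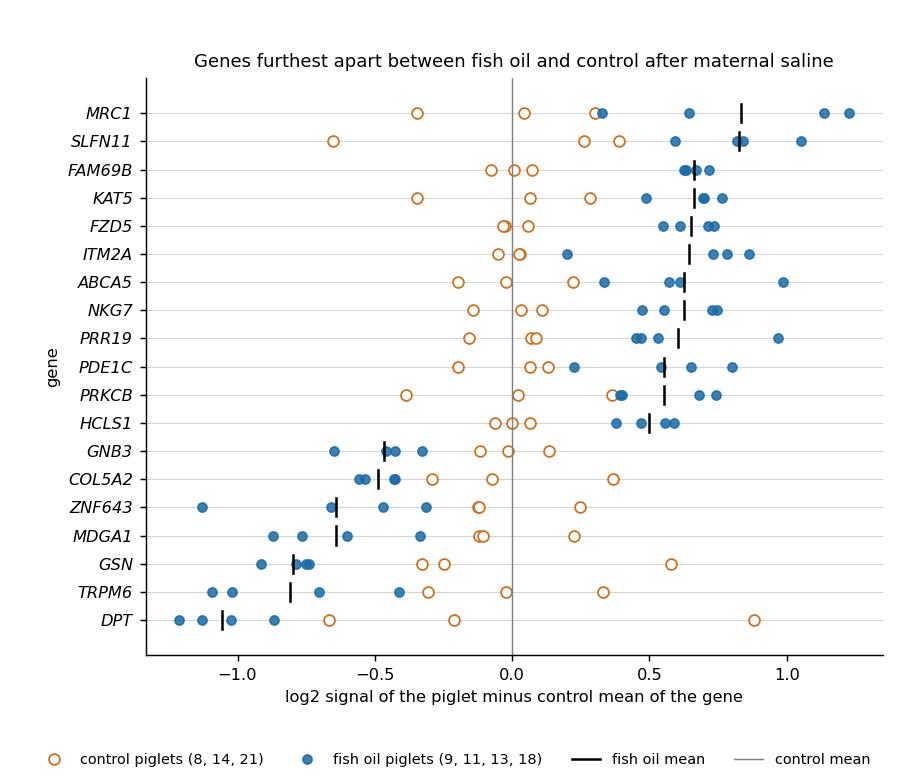
Each row is 1 gene and each point 1 piglet after maternal saline, as log2 signal minus the mean of the 3 control piglets of that gene; filled points are fish oil, open points control, black bars the fish oil mean. The differences run from 0.83 log2 in MRC1 to -1.06 log2 in DPT, and the groups do not overlap in any of these 19 genes because the genes were chosen so.

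Lists of genes by cell type and function were then described, 34 of them with at least 5 genes tested. No member of any list passed the adjusted threshold. The medians ran from 0.42 log2 for macrophage markers to -0.60 log2 for fibroblast markers, and in most lists they lay within 0.1 log2 of 0.

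**Figure D2:**
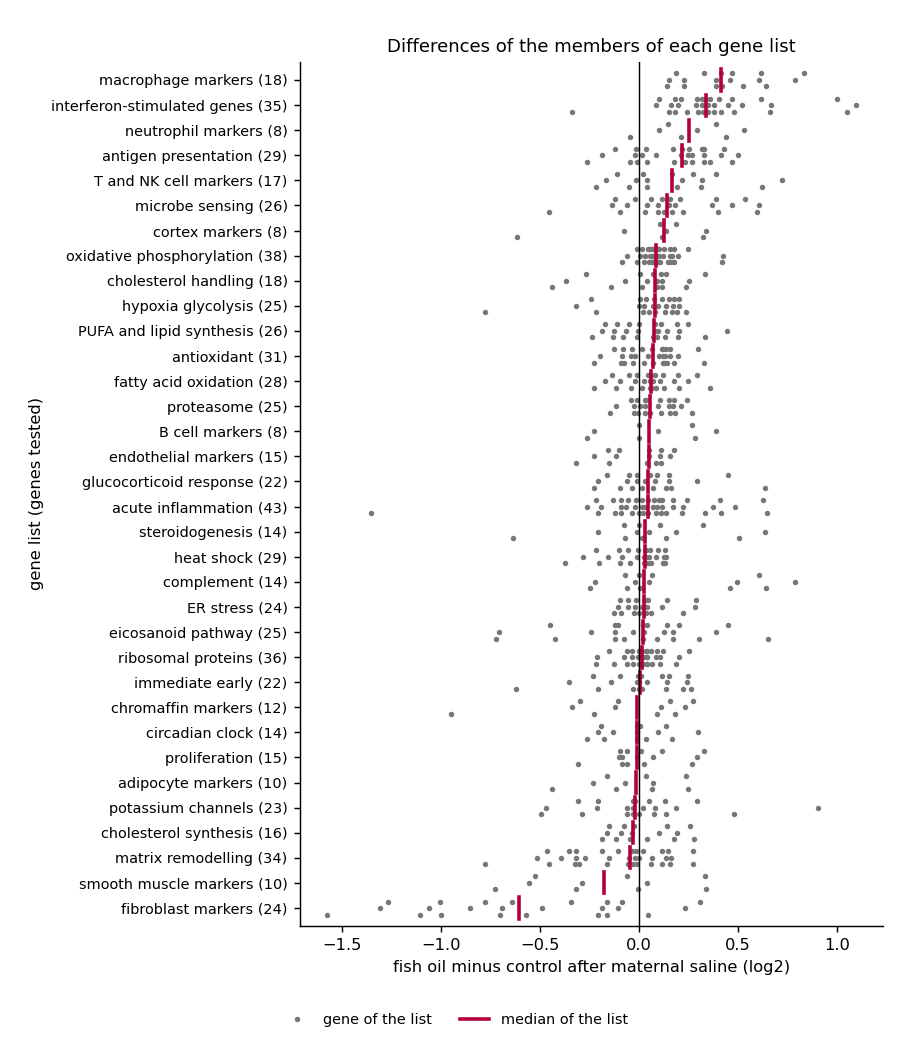
Each dot is 1 gene's difference, fish oil minus control after maternal saline, on the log2 scale; red bars are list medians, lists are ordered by median, and the number of genes tested is in brackets. Macrophage markers lie wholly to the right of 0 and fibroblast markers mostly to the left, with medians of 0.42 and -0.60 log2.

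Macrophage markers were higher with fish oil in every gene tested. All 18 had a positive difference, from 0.14 to 0.83 log2, where 53.1% of all genes did. At p under 0.05 there were 4, namely MRC1, FCER1G, C1QC and MS4A7, where 1.29% of all genes were higher at this p. FCER1G, the signalling chain shared by Fc receptors, read 5.52, 5.51, 4.99 and 5.66 with fish oil against 4.92, 4.70 and 4.79 with control (0.62 ± 0.266 log2), so piglet 13 came closest to the controls. C1QC, a chain of the complement starter C1q that macrophages make, read 6.97, 7.23, 6.0 and 8.08 against 6.42, 6.14 and 6.27 (0.79 ± 0.350 log2). Piglet 18 was the highest and piglet 13 lay below all 3 controls. MS4A7, a membrane protein of mature macrophages, read 4.41, 4.74, 4.09 and 5.20 against 4.16, 4.02 and 4.08 (0.52 ± 0.243 log2). There too piglet 18 was the highest, and piglet 13 lay among the controls.

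In MRC1, FCER1G, CD86 and ADGRE1 the groups did not overlap, where 2.51% of all genes were apart in this direction. The last is named after its values were seen. CD86 is a costimulator of T cells, at 0.42 ± 0.213 log2, and ADGRE1 is a surface receptor of macrophages, at 0.39 ± 0.200 log2. CD14, the LPS co-receptor, read 6.18, 5.98, 6.23 and 6.50 against 5.56, 5.91 and 6.03 (0.39 ± 0.222 log2).

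A level of the list was taken for each piglet, the mean over its genes of the signal minus that gene's mean over the 7 piglets. For macrophage markers it was 0.23, 0.15, -0.17 and 0.53 in piglets 9, 11, 13 and 18, against -0.14, -0.29 and -0.32 in piglets 8, 14 and 21. Piglet 13 overlapped the controls and piglet 18 was the highest. The median difference ran from 0.33 log2 without piglet 18 to 0.49 log2 without piglet 13, and all 18 genes stayed positive whichever 1 of the 7 piglets was left out.

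Markers of other white blood cells were examined in the same way. Of 8 neutrophil genes 7 were higher, with a median of 0.26 log2 and 0 at p under 0.05. That median was 0.12 log2 without control piglet 21 and 0.40 log2 without control piglet 14. Their chemokine receptor CXCR2 read 4.21, 4.14, 4.42 and 4.40 against 3.80, 4.11 and 3.65, without overlap (0.44 ± 0.222 log2). Of 17 T and natural killer cell genes 12 were higher, with a median of 0.17 log2, which was 0.04 log2 without control piglet 8, 0.10 log2 without piglets 9, 18 or 21 in turn, and 0.22 log2 without piglet 13. NKG7 and the adhesion receptor CD2 (0.72 ± 0.326 log2) had a p under 0.05, where 1.29% of all genes were higher at this p. However, CD2 was as low as 4.04 in fish oil piglet 13 and as high as 5.0 in control piglet 8. The chain CD3E of the T cell receptor complex, named after its value was seen, was level between the groups (-0.01 ± 0.199 log2). B cell genes had a median of 0.05 log2, with 5 of 8 higher.

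Genes of antigen presentation were higher in 22 of 29, with a median of 0.22 log2 (0.13 log2 without control piglet 14) and 0 at p under 0.05. B2M, the light chain of MHC class I, read 11.46, 11.56, 11.10 and 11.79 against 11.09, 11.02 and 11.23 (0.36 ± 0.194 log2), and PSMB9, a subunit of the immunoproteasome, differed by 0.43 ± 0.267 log2. Of the 14 complement genes 9 were higher, with a median of 0.03 log2, but 4 of these 14 are also on the macrophage list. The complement median was -0.05 log2 without fish oil piglet 18 and 0.31 log2 without control piglet 8. Properdin (CFP), which stabilises the alternative pathway, was above all controls in every fish oil piglet, with 4.49, 4.81, 4.49 and 4.84 against 4.03, 4.30 and 4.16 (0.50 ± 0.205 log2).

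Interferon-stimulated genes, which cells switch on against viruses and after LPS, were higher with fish oil in 34 of 35, with a median of 0.34 log2. The exception was OAS1, a synthase that activates RNase L, at -0.34 ± 0.271 log2, named after its value was seen. At p under 0.05 there were 2 genes, IFIT2 and LGALS9, where 1.29% of all genes were higher at this p. IFIT2, which binds viral RNA and blocks its translation, read 8.98, 8.86, 8.40 and 8.99 in the fish oil piglets and 8.0, 7.59 and 7.67 in the controls. The groups did not overlap, with fish oil piglet 13 and control piglet 8 nearest to each other, and the difference was 1.05 ± 0.423 log2, 2.08-fold. LGALS9, the secreted lectin galectin-9, read 7.02, 6.89, 6.83 and 7.35 against 6.66, 6.40 and 6.45 (0.52 ± 0.235 log2).

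IFIT3, a partner of IFIT2, differed little within the fish oil group, at 10.85, 10.75, 10.69 and 10.70, and read 10.29, 10.01 and 9.95 in the controls (0.67 ± 0.356 log2). CXCL11, a chemokine for activated T cells, read 7.38, 7.96, 7.20 and 8.05 against 6.33, 6.85 and 6.47 (1.10 ± 0.587 log2). The SE of both genes rests on the spread within all 6 groups of the study. IFIT1, the sensor of uncapped RNA (0.47 ± 0.263 log2), also lay above all controls in every fish oil piglet, while the antiviral GTPase MX1 overlapped (0.42 ± 0.294 log2).

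In 10 of the 35 genes the groups did not overlap, where 2.51% of all genes were apart in this direction. Beside IFIT1, IFIT2, IFIT3, CXCL11 and LGALS9 these were RSAD2, DTX3L, CXCL10, GBP1 and LOC100151816, named after their values were seen. RSAD2, the antiviral enzyme viperin, had the widest range, from 9.89 in fish oil piglet 9 to 8.18 in control piglet 21 (1.0 ± 0.552 log2).

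The level of the interferon list was 0.27, -0.01, 0.11 and 0.29 in piglets 9, 11, 13 and 18, against -0.14, -0.17 and -0.34 in piglets 8, 14 and 21, so the groups did not overlap. Piglet 11 stood nearest to the controls. The median was 0.24 log2 without piglet 21 and 0.43 log2 without piglet 11, and at least 33 of the 35 genes were higher in each case where 1 of the 7 piglets was left out. Macrophage markers, which share no gene with this list, had a median of 0.42 log2 in the same piglets, and their part in the interferon result was not tested. Piglet 18 was highest in both levels, and piglet 13 was within the control range in the macrophage level alone. The relation between both levels was not tested.

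Receptors and adaptors that sense microbes were higher in 20 of 26, with a median of 0.14 log2, and their level was the only other one, among the 34 lists, in which the groups did not overlap (-0.04 to 0.24 with fish oil, -0.19 to -0.04 with control). The gap was narrow, since the lowest fish oil piglet was at -0.038 and the highest control at -0.044. Levels were thus apart in 2 of 34 lists. Among all genes 2.51% were apart on the higher side and 1.57% on the lower side, and no list level was tested. LY96, the gene of MD-2, read 4.47, 4.64, 4.73 and 5.09 against 4.66, 4.11 and 3.62 (0.61 ± 0.234 log2). Its partner TLR4, the LPS receptor, read 4.88, 5.14, 5.17 and 5.29 against 4.70, 5.04 and 3.83 (0.60 ± 0.279 log2). In both genes control piglet 21 was the lowest, by far in TLR4, and without it the differences were 0.35 and 0.25 log2. Without the highest control, piglet 8 in LY96 and piglet 14 in TLR4, they were 0.87 and 0.86 log2. The DNA sensor TLR9 lay above all controls in every fish oil piglet (0.37 ± 0.168 log2), but a second probe set of TLR9 had the opposite sign. NOD1, a sensor of bacterial cell wall peptides named after its value was seen, was lower (-0.45 ± 0.197 log2), and the adaptors MYD88 and TRAF6, likewise named, differed by 0.23 ± 0.182 and -0.06 ± 0.216 log2.

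Cytokines and other genes of acute inflammation had a median of 0.05 log2, with 27 of 43 higher and 16 lower. With 1 piglet left out the number of higher genes ran from 21 to 34, and the median from -0.02 log2 without piglet 18 to 0.14 log2 without piglet 21. IL6 read 9.53, 9.31, 11.02 and 11.36 in the fish oil piglets and 9.80, 10.50 and 10.88 in the controls. The fish oil piglets fell into a low pair, 9 and 11, and a high pair, 13 and 18, around the controls. The difference was -0.09 ± 0.571 log2, with a 95% interval from -1.29 to 1.11 log2, which leaves room for a doubling in either direction. The neutrophil attractant CXCL8 (0.03 ± 0.363 log2, interval -0.73 to 0.80) and the anti-inflammatory cytokine IL10 (0.12 ± 0.180 log2, interval -0.26 to 0.50) were measured with narrower intervals. PTGS2, the inducible cyclooxygenase, differed by -0.12 ± 0.414 log2.

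TNF and PTX3 were the 2 genes of this list of 43 with an unadjusted p under 0.05, 1 higher and 1 lower. Of all genes, 1.29% were higher and 0.771% lower at this p. TNF, the early cytokine of the LPS response, read 5.37, 5.43, 5.23 and 5.81 with fish oil against 5.26, 4.96 and 4.27 (0.63 ± 0.275 log2), and 0.35 log2 without control piglet 21. PTX3, a soluble pattern receptor made by stromal and myeloid cells, was lower, with 4.90, 4.51, 5.08 and 4.89 against 6.33, 7.20 and 5.07 (-1.35 ± 0.419 log2). Control piglet 21 was level with the fish oil piglets in PTX3, and the others were far above them. The difference was -1.92 log2 without piglet 21 and -0.85 log2 without piglet 14.

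**Figure D3:**
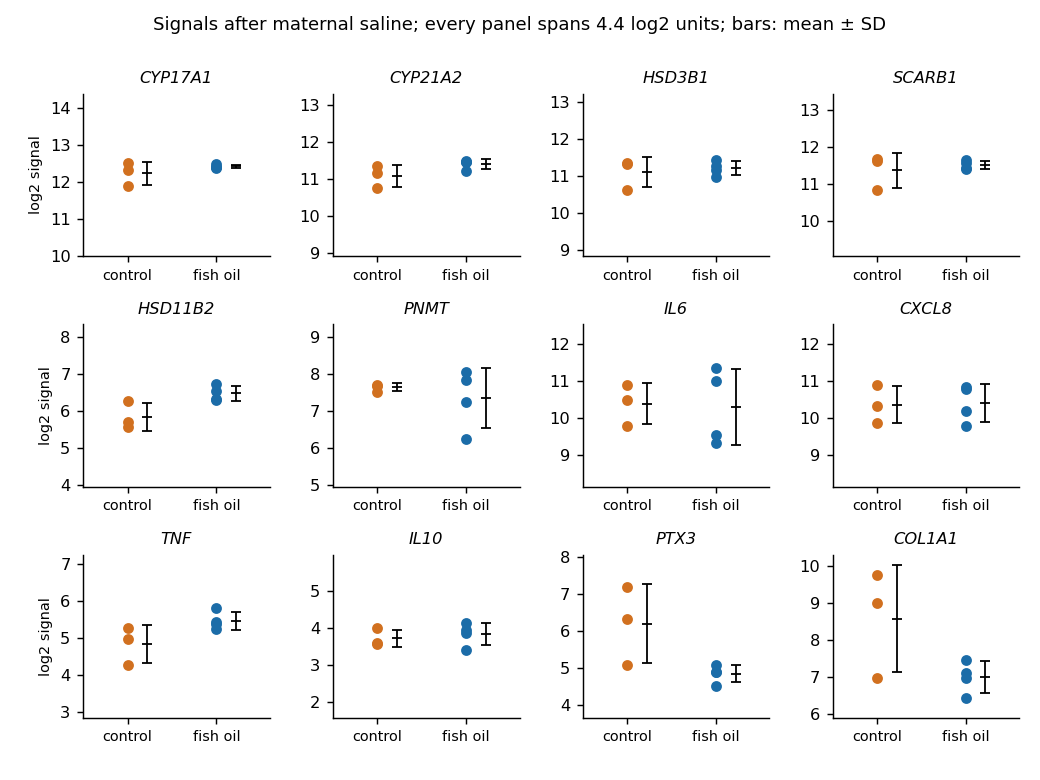
Log2 signals of 12 genes after maternal saline; each point is 1 piglet (control 3, fish oil 4), and the black marks show mean ± SD. HSD3B1, CYP17A1, SCARB1 and IL6 overlap, and in CYP21A2 only fish oil piglet 13 lies below the highest control. HSD11B2 lies apart, and COL1A1 and PTX3 are spread over more than 2 log2 units in the control piglets alone.

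Steroid synthesis was close between the diets. Of its 14 genes 9 were higher and 5 lower, with a median of 0.03 log2 that turned to -0.01 after quantile normalization. HSD3B1, which turns pregnenolone into progesterone, read 10.98, 11.15, 11.26 and 11.44 with fish oil against 10.63, 11.31 and 11.36 (0.11 ± 0.238 log2, interval -0.39 to 0.61). CYP17A1, which leads to cortisol and androgens, overlapped as well (0.19 ± 0.164 log2, interval -0.16 to 0.53). So did SCARB1, which brings HDL cholesterol into the cell (0.14 ± 0.236 log2, interval -0.36 to 0.64). CYP21A2, the 21-hydroxylase, read 11.47, 11.47, 11.20 and 11.48 against 10.74, 11.35 and 11.15 (0.32 ± 0.169 log2, interval -0.03 to 0.68). There only fish oil piglet 13 lay below the highest control, piglet 14. In each of these 4 genes control piglet 8 was the lowest of the 7, and without it the differences were -0.13 log2 in HSD3B1, 0.01 in CYP17A1, 0.15 in CYP21A2 and -0.13 in SCARB1.

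HSD11B2, which inactivates cortisol to cortisone, was the steroid gene furthest apart. It read 6.74, 6.34, 6.29 and 6.55 with fish oil against 5.70, 5.56 and 6.26 with control. Piglet 21 came within reach of the lowest fish oil piglet, and the others were clearly below. The difference was 0.64 ± 0.234 log2, 1.56-fold. TSPO, an outer mitochondrial membrane protein also found in macrophages, was higher by 0.51 ± 0.231 log2 with overlap. Among glucocorticoid targets, ANXA1, annexin A1, read 7.43, 7.37, 7.73 and 7.38 against 7.11, 7.04 and 6.92 (0.45 ± 0.194 log2). The target FKBP5 (0.16 ± 0.230 log2) and the receptor gene NR3C1 (0.09 ± 0.225 log2) overlapped, and the list's median was 0.05 log2. NOV, a matricellular protein of the cortex named after its value was seen, was lower (-0.62 ± 0.212 log2).

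Chromaffin genes of the medulla were higher in 6 and lower in 6 of 12, with a median of -0.01 log2. DBH, which makes noradrenaline, differed by -0.34 ± 0.50 log2 and PNMT, which makes adrenaline, by -0.30 ± 0.516 log2. Fish oil piglet 18 was the lowest in both, at 5.60 and 6.24, and without it the differences were -0.02 and 0.07 log2. The level of the list overlapped, from -0.31 to 0.27 with fish oil and from -0.27 to 0.40 with control.

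Fibroblast genes, which build the capsule and the stroma of the gland, were lower with fish oil in 21 of 24, with a median of -0.60 log2 and single genes between -1.58 and 0.31 log2. At p under 0.05, 6 were lower, namely COL6A3, COL5A2, DPT, COL1A2, COL3A1 and COL1A1, and 0 were higher. Over all genes 0.771% were lower at this p and 1.29% higher. COL6A3, a chain of the microfibrillar type VI collagen, read 4.16, 4.80, 4.97 and 4.61 with fish oil against 5.62, 5.44 and 4.93 (-0.70 ± 0.193 log2). Only piglet 13 reached the lowest control, piglet 21. COL1A2, of the fibrillar type I collagen, read 5.72, 6.50, 6.19 and 6.28 against 8.83, 7.39 and 6.09 (-1.26 ± 0.497 log2).

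COL1A1, its companion chain, had the largest difference of the list. It read 6.43, 7.11, 6.97 and 7.46 with fish oil against 9.76, 9.0 and 6.96 (-1.58 ± 0.659 log2). The control piglets alone spanned almost 3 log2 units, and piglet 21 lay within the fish oil range. The difference was -0.98 log2 without piglet 8 and -2.38 log2 without piglet 21. COL3A1 read 5.99, 5.82, 6.49 and 6.08 against 8.13, 7.03 and 6.15, again with piglet 8 highest (-1.0 ± 0.410 log2), and the difference was -0.49 log2 without piglet 8 and -1.48 log2 without piglet 21. The matrix genes with the least difference, PDGFRB (0.05 ± 0.185 log2) and COL12A1 (-0.08 ± 0.232 log2), were named after their values were seen.

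The fibroblast level was 0.88, 0.33 and -0.23 in control piglets 8, 14 and 21 and -0.65, -0.12, -0.21 and 0.01 in fish oil piglets 9, 11, 13 and 18. Control piglet 21 lay below 3 of the 4 fish oil piglets. The median difference was -0.32 log2 without piglet 8 and -0.86 log2 without piglet 21, and 18 to 22 of the 24 genes were lower. Smooth muscle markers were lower in 7 of 10, with a median of -0.17 log2, which was -0.09 log2 without piglet 8 or 9 and -0.26 log2 without piglet 21. Their contractile gene CNN1, calponin, read 4.59, 5.18, 4.97 and 5.45 against 5.87, 5.73 and 5.73 (-0.73 ± 0.301 log2). Endothelial genes had a median of 0.05 log2, with 9 of 15 higher. How much capsule or stroma each gland sample held was not measured, and its part in the collagen result was not tested.

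Genes of lipid metabolism differed little between the diets. Of 26 genes of fatty acid desaturation, elongation and synthesis 15 were higher (median 0.08 log2). The desaturase FADS1 read 7.56, 8.17, 7.42 and 8.19 with fish oil against 7.58, 7.79 and 8.14 (-0.00 ± 0.277 log2, interval -0.59 to 0.58), and FADS2 differed by 0.20 ± 0.185 log2 (interval -0.19 to 0.58). LPCAT2, which remodels membrane phospholipids, was the member with p under 0.05 (0.44 ± 0.173 log2), where 1.29% of all genes were higher at this p. Its signals were low and lay under the filter level of 3.23 on average in the controls. ELOVL7, an elongase, was above all controls in every fish oil piglet (0.25 ± 0.164 log2).

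Fatty acid oxidation had 19 of 28 genes higher (median 0.06 log2). CPT2 of the carnitine shuttle read 4.93, 4.97, 5.18 and 4.83 against 4.73, 4.50 and 4.63, without overlap (0.36 ± 0.194 log2), and the lipid sensor PPARA differed by -0.02 ± 0.221 log2. Cholesterol synthesis had 7 of 16 genes higher (median -0.03 log2). Its level was lowest in fish oil piglet 13, at -0.69, with the other fish oil piglets between 0.12 and 0.38, and without that piglet the median was 0.20 log2. In the eicosanoid pathway 14 of 25 were higher (median 0.02 log2). CMKLR1, a receptor for chemerin and the omega-3 product resolvin E1, was higher (0.45 ± 0.174 log2), with 4.88, 5.23, 5.14 and 5.40 against 4.36, 4.94 and 4.84. ALOX5AP, needed for leukotriene synthesis, differed by 0.65 ± 0.417 log2, and the prostacyclin synthase PTGIS, named after its value was seen, by -0.45 ± 0.186 log2.

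Respiratory chain and ATP synthase subunits were higher in 34 of 38, but by small amounts. The median was 0.09 log2, 0 had a p under 0.05 and 0 were without overlap. NDUFA6 (0.42 ± 0.268 log2) and NDUFA1 (0.43 ± 0.278 log2) of complex I differed most, and for NDUFA6 a second probe set had the opposite sign. The level of the list ran from -0.16 to 0.15 with fish oil and from -0.14 to 0.01 with control, and without piglet 21 the number of higher genes was 25. Lists of ribosomal proteins, heat shock, endoplasmic reticulum stress, proteasome, antioxidant and cell division genes had medians between -0.01 and 0.07 log2.

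The same diets were compared after maternal LPS in 4 fish oil piglets (10, 19, 20 and 24) and 3 control piglets (6, 16 and 17), none of which is among the 7 arrays above. There 0 probe sets passed, and 691 had an unadjusted p under 0.05. The difference between both fish oil effects was tested directly, and 0 of 20668 probe sets passed (0%), with 545 at an unadjusted p under 0.05. Among the 9992 genes, 2.51% had an unadjusted p under 0.05 for the difference between the effects, and 52.2% were higher with fish oil after maternal LPS. Of the 12 named higher genes 11 had the same sign after maternal LPS, with a median of 0.15 log2 there. Of the 7 lower genes 4 kept their sign, with a median of -0.01 log2. These 19 genes were selected for large differences after saline, so smaller ones in other piglets follow from the selection, and nothing is read from the change in size.

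The interferon-stimulated genes stood on opposite sides. After maternal saline 34 of 35 were higher with fish oil (median 0.34 log2), and after maternal LPS 0 of 35 were (median -0.40 log2). The difference between the effects had an unadjusted p under 0.05 in 14 of the 35, where 2.51% of all genes did, and an adjusted one in 0. IFIT2, for example, had group means of 8.81 with fish oil and 7.75 with control after saline, and of 6.70 and 7.19 after LPS (difference between the effects 1.55 ± 0.598 log2). HERC5, an enzyme that attaches ISG15 and is named after its values were seen, differed by 0.36 log2 after saline and by -0.94 log2 after LPS (difference between the effects 1.31 ± 0.459 log2). Fish oil piglet 20 was far below all others after LPS, and without it the median there was -0.19 log2 and 10 of the 35 had a p under 0.05 for the difference between the effects. Without piglet 24, the fish oil array with the narrowest spread of signals, the median was -0.55 log2 and that number was 24.

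Macrophage markers were higher in 7 of 18 after maternal LPS (median -0.07 log2) against 18 of 18 after saline. The difference between the effects had an unadjusted p under 0.05 in 3 of the 18, where 2.51% of all genes did. These were MRC1, C1QC and the scavenger receptor MSR1, the last named after its value was seen. Microbe sensors were higher in 9 of 26 after LPS (median -0.15 log2). LY96 went from 0.61 log2 after saline to -0.52 log2 after LPS (difference between the effects 1.13 ± 0.33 log2), and TLR4 from 0.60 to -0.05 log2 (0.65 ± 0.395 log2). ANXA1 had 0.45 log2 after saline and -0.53 log2 after LPS (difference between the effects 0.98 ± 0.274 log2).

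Fibroblast genes were on the lower side in both settings, with 3 of 24 higher after saline and 4 of 24 after LPS, and medians of -0.60 and -0.20 log2. The median after LPS did not hold when single piglets were left out, and it was 0.09 log2 without control piglet 17. For the difference between the effects 1 of the 24 genes had an unadjusted p under 0.05, where 2.51% of all genes did. This was POSTN, periostin (-0.64 log2 after saline, 1.68 after LPS, difference between the effects -2.31 ± 1.04 log2), named after its value was seen. HSD11B2 was higher in both, by 0.64 and 0.43 log2 (difference between the effects 0.21 ± 0.331 log2), as were CYP21A2, by 0.32 and 0.27 log2, and COL5A2 was lower in both, by -0.49 and -0.36 log2.

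**Figure D4:**
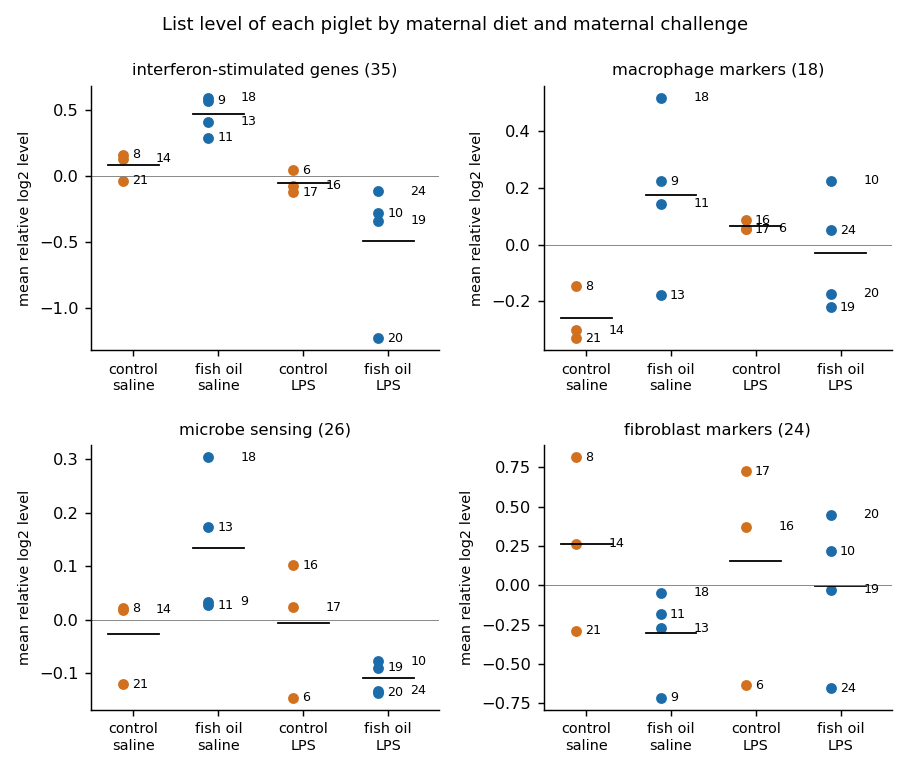
Level of 4 gene lists in each piglet, as the mean relative log2 signal over the list's genes, centred on the 14 piglets shown; columns are the 4 groups of diet and maternal challenge, small numbers name the piglets, black bars are group means. The interferon levels of the fish oil piglets lie above the controls after saline, while after LPS 3 of the 4 lie below all controls, with piglet 20 lowest, and the fibroblast levels overlap.

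**Figure D5:**
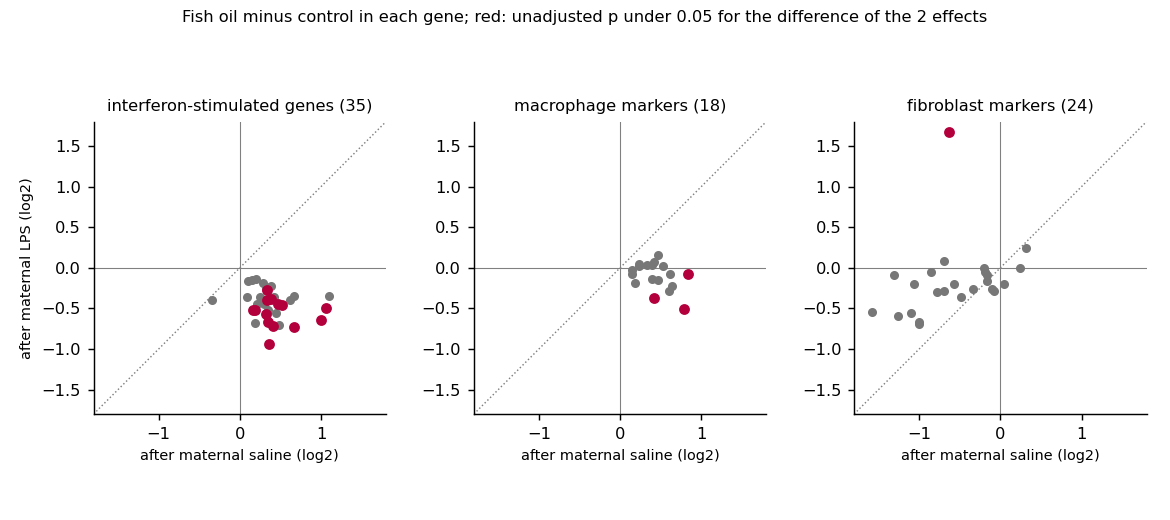
Each point is 1 gene, with the fish oil minus control difference after maternal saline on the x axis and after maternal LPS on the y axis, both in log2; the dotted line marks equal differences and red marks an unadjusted p under 0.05 for the difference between them. In the interferon panel 34 of 35 genes lie in the quadrant higher after saline and lower after LPS, in the macrophage panel the points lie to the right of 0 and on both sides of 0 in height, and in the fibroblast panel most lie in the lower left.

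Microalgae, the other omega-3 source, was given to the sows of 3 piglets after maternal saline, which are set against the same 3 control piglets, so the following values are not independent of those of fish oil. The median of the macrophage markers was 0.18 log2 with microalgae and 0.42 with fish oil, that of the interferon-stimulated genes 0.15 and 0.34, that of the microbe sensors 0.15 and 0.14, and that of the fibroblast genes 0.00 and -0.60. With microalgae, 18 of 18 macrophage markers, 21 of 35 interferon-stimulated genes, 19 of 26 microbe sensors and 13 of 24 fibroblast genes were higher. In single genes, MRC1 differed from control by 0.37 log2 with microalgae and 0.83 with fish oil, IFIT2 by 0.64 and 1.05, LY96 by 0.59 and 0.61, COL1A1 by -0.42 and -1.58, and PTX3 by -0.02 and -1.35.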

How the data were processed

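Transcriptome Analysis Console 4.0 is listed in the submitters' processing notes; the summarization and the normalization are "not given in the sources used here". Deposited were log2 signals for 27558 probe sets on 19 arrays (base 2 inferred from the range), which were not scaled further. The array annotation gave 1 symbol to 13157 probe sets, several to 523 and none to 13878. The 6890 probe sets with the lowest means (25%, under 3.23) were left out. All 19 arrays entered a model of 6 group means (limma 3.58.1, R 4.3.3; 13 residual degrees of freedom; variance trend with intensity). The two-sided p-values were adjusted by Benjamini-Hochberg over 20668 probe sets. The probe set with the highest mean stood for a gene. Lists were described by counts and medians, without a test. Named were the 12 largest differences per direction at p under 0.01 without overlap, in each list up to 4 genes on the side of its median, by smallest p, and 32 of 40 fixed genes that were tested. The comparison, the lists and the fixed genes were chosen with earlier results of these data known. The workflow was tested on simulated data. Alternatives covered the arrays fitted, filter, normalization, array weights, covariates, variance prior, probe set choice and each piglet left out.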

Additional observations from a re-analysis of the deposited data

Results flagged for a closer look

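Of 199 values examined in the 4 fish oil piglets (165 genes and 34 list levels), 10 (5.03%) had 1 piglet far from the other 3, where chance marks about 1 in 20. Piglet 13 was low in CYP21A2 (11.20), in CD2 (4.04) and in the level of the endothelial markers (-0.069), and high in ANXA1 (7.73). Piglet 18 was high in PRR19 (4.23) and in S100A9 (4.02), where the other 3 piglets had 1 identical value of 3.90, and low in NDUFA1 (3.89). Piglet 9 was low in MYLK (4.47) and high in TPX2 (4.58) and LOXL3 (4.29). No fish oil effect differed between maternal saline and maternal LPS at an adjusted p of 0.05.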

How the results depend on the processing

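No alternative that was run, and no piglet left out, gave a probe set past the threshold, for fish oil against control after saline or for the difference from the effect after LPS. The lowest adjusted p was 0.053, with array weights. At an unadjusted p under 0.05, where 234 probe sets were higher and 207 lower, the numbers were 369 and 326 with only the 7 arrays in the fit, 527 and 501 with array weights, and 151 and 99 with the lowest 50% of probe sets left out, which tests fewer probe sets. With the array spread as covariate 365 were higher. The cause was not tested for the others. With 1 of the 7 piglets left out, 199 to 273 were higher and 154 to 264 lower. The median difference kept its sign under all of these in 15 of the 34 lists, among them macrophage, interferon, microbe sensing and fibroblast genes, and changed sign under at least 1 in the other 19. Piglet numbers differ between the groups. No paired analysis was possible because the groups compared share no number.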

Other observations

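The probe set with the lowest p, 15344727, carries no gene symbol in the annotation used. It read 10.25, 8.67, 9.84 and 10.09 in fish oil piglets 9, 11, 13 and 18 and 6.21, 5.54 and 7.54 in control piglets 8, 14 and 21, so all 3 controls were low. The difference was 3.28 ± 0.574 log2, 9.73-fold (limma adjusted p = 0.450). After maternal LPS the group means were 9.49 with fish oil and 9.27 with control (difference 0.21 log2), and with microalgae after saline the mean was 9.85, so the low signals were those of the control piglets after maternal saline.

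Of the potassium channels that set the membrane potential of steroid and chromaffin cells, 11 of 23 were higher and 12 lower (median -0.02 log2). KCNK9, the background channel TASK-3, chosen here after its value was seen, read 3.70, 3.81, 3.15 and 4.42 with fish oil against 2.31, 3.42 and 2.85 (0.91 ± 0.410 log2), with the control mean under the filter level of 3.23. Of the immediate early genes 13 of 22 were higher (median 0.01 log2), but CYR61, a matricellular protein also named after its value was seen, was lower, with 4.73, 5.08, 5.30 and 5.20 against 5.81, 5.28 and 6.0 (-0.62 ± 0.210 log2). Circadian clock genes had a median of -0.01 log2, with 6 of 14 higher.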
